A study of Mus musculus with 15 samples.

Results

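The aryl hydrocarbon receptor (AHR) axis was followed as 7 genes, Ahr, Arnt, Ahrr, Cyp1a1, Cyp1b1, Tiparp and Aldh3a1, out of 55291 genes in the tables. They were taken by name, and the group was selected on measured values, because Cyp1a1 was among the largest increases in cells kept without glutamine (Gln). The comparison of Gln-free with control cells is therefore given as a description, with no test, for every member. HY19636 is a murine pancreatic ductal adenocarcinoma (PDAC) line, a single line isolated from a tumor of a genetically engineered mouse (p53 L/+; Ptf1a Cre+) in which Cre acts in the pancreatic lineage, and all 15 samples come from this line. RNA was sequenced from 5 groups of 3 samples. Cells grown in DMEM with 10% serum were treated with DON (6-diazo-5-oxo-l-norleucine, a Gln antagonist that blocks many Gln-using enzymes) at 25 µM for 24 h, kept without Gln for 24 h, or left as controls. Orthotopic HY19636 tumors grew in the pancreas of female C57BL/6J mice, 8 to 10 weeks old, that received vehicle or the DON prodrug DRP-104. The daily dose was 3 mg per kg in 2 cycles of 5 days on and 2 days off, starting 7 days after surgery. These mice keep an intact immune system. No source used here says whether the 3 cultures of a group were grown separately, so p-values measure the spread between these samples only.

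AHR is a ligand-activated transcription factor that waits in the cytoplasm in a complex with HSP90 and co-chaperones. When a ligand binds, it enters the nucleus, pairs with ARNT and binds short DNA elements with the core GCGTG. It is known for inducing xenobiotic-metabolizing enzymes, foremost the monooxygenases Cyp1a1 and Cyp1b1, together with its own negative regulators Ahrr and Tiparp. Some of its ligands are made from tryptophan, and in pancreatic tumors it is studied in both tumor cells and immune cells.

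RefSeq promoter windows (GRCm38.p6) were at hand for 5 of the 7 members, and the 250 bases before the transcription start are shown for the 3 members with the highest increase without Gln, so that the GCGTG core can be seen in place. Capitals mark GCGTG, or CACGC where the core lies on the other strand. Cyp1a1 is chr9:57697363-57697612 on the plus strand, Cyp1b1 is chr17:79715062-79715311 on the minus strand and Tiparp is chr3:65528197-65528446 on the plus strand, each printed 5′ to 3′ along its gene. The starts are those of RefSeq, which for Cyp1b1 and Tiparp differ by some bases from the gene ends in the authors' table given further on, so that the Tiparp window reaches into the gene as that table draws it.
Cyp1a1: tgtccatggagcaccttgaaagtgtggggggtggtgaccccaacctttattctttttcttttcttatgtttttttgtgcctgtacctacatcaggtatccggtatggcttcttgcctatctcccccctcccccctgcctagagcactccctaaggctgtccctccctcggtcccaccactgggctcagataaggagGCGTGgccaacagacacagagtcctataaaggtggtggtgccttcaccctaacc
Cyp1b1: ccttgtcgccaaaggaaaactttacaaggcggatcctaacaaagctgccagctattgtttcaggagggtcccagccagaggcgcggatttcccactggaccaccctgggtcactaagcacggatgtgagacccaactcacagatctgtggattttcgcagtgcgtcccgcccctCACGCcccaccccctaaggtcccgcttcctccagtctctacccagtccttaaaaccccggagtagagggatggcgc
Tiparp: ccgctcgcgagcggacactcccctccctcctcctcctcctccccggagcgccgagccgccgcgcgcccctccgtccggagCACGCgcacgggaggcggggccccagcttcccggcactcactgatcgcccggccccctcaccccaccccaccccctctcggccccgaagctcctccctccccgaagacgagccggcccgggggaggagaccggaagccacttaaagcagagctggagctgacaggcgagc
Each of these windows holds 1 core. It begins 54 bases before the start in Cyp1a1, 76 bases in Cyp1b1 and 170 bases in Tiparp, and it lies on the gene's own strand in Cyp1a1 only. The window of Arnt also holds 1 core and that of Ahrr holds 3, of which 1 is part of the longer motif TNGCGTG, while the window of Cyp1a2, the neighbor of Cyp1a1, holds none. GCGTG occurred on either strand in 28.2% of 32851 windows of the same length and TNGCGTG in 4.10%, so a single core is common. These matches are letters in a window and not binding sites, and the best-studied AHR elements of Cyp1a1 lie farther upstream than this window.

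The culture libraries held 25.2 to 48.2 M reads and the tumor libraries 16.3 to 20.7 M. Control library 3, at 48.2 M reads, stood apart from the other 2 control libraries. Values are normalized counts, that is the counts of a gene after division by a size factor estimated for every library within each comparison's table, so the same control library carries slightly different values in the DON and in the Gln-free table. Genes with a mean of at least 10 normalized counts were tested as log2(value + 1) with limma, and a gene was called at an adjusted p under 0.05 (Benjamini-Hochberg over all genes tested). After DON, 33.3% of 13556 genes were called higher and 34.7% lower, and in Gln-free cells 34.5% of 13390 genes were called higher and 34.9% lower. In tumors 0 of 15454 genes were called, which is 0% (limma, 775 genes at an unadjusted p under 0.05, smallest adjusted p = 0.816, with 0 calls by edgeR and 56 by DESeq2). The epithelial markers Krt8, Krt18, Krt19, Epcam, Cdh1 and Krt7 were present in all libraries. Their summed level, in reads scaled over all 15 libraries, was 326929 to 416970 in control cells, 97078 to 104958 after DON and 136088 to 149625 without Gln. Of the fibroblast markers, Col1a2, Dcn, Lum and Pdpn were at 0 in all culture libraries.

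Cyp1a1 (ENSMUSG00000032315, chromosome 9 from 57697613 to 57703822, plus strand) encodes the monooxygenase that is the classical readout of AHR activity. Without Gln it had 826, 670.1 and 672 normalized counts in the 3 cultures, against 20.2, 23.6 and 26.3 in control cells. All 3 Gln-free cultures stood far above all control cultures, with means of 723 ± 89.7 (SD, n = 3) and 23.4 ± 3.09, a ratio of 30.9 and a log2 difference of 4.89. That difference ranked 6 among the 13390 genes, between Edn1 (endothelin 1) with 5.05 and the pseudogene H1f11-ps with 4.89, which held no read in the controls and was at least 9.60-fold higher against a floor of 3 reads per library. Leaving out any single library kept the log2 difference of Cyp1a1 within its spread between replicates. In raw reads the gene had 791, 649 and 671 reads without Gln and 17, 20 and 42 in the controls, so the control level rests on few reads.

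DON, given to the same cells for the same time, did not show this increase. Cyp1a1 had 11.9, 14.8 and 21.8 normalized counts after DON against 21.4, 25.0 and 27.3 in the controls. The groups overlapped slightly, and 2 of the 3 DON cultures were below every control. The log2 fold change was -0.61 (standard error, SE, 0.413, 95% interval -1.49 to 0.28, limma adjusted p = 0.207), and an exact two-sided permutation test gave p = 0.2 (a test of 3 against 3 cannot go below 0.1). That interval ends at 0.28 on the log2 scale, beside the value of 4.89 without Gln. Both comparisons use the same 3 control libraries. On the 9 culture libraries scaled together, Cyp1a1 had 731 ± 90.5 scaled reads without Gln and 15.9 ± 5.01 after DON, a ratio of 45.9.

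**Figure D1:**
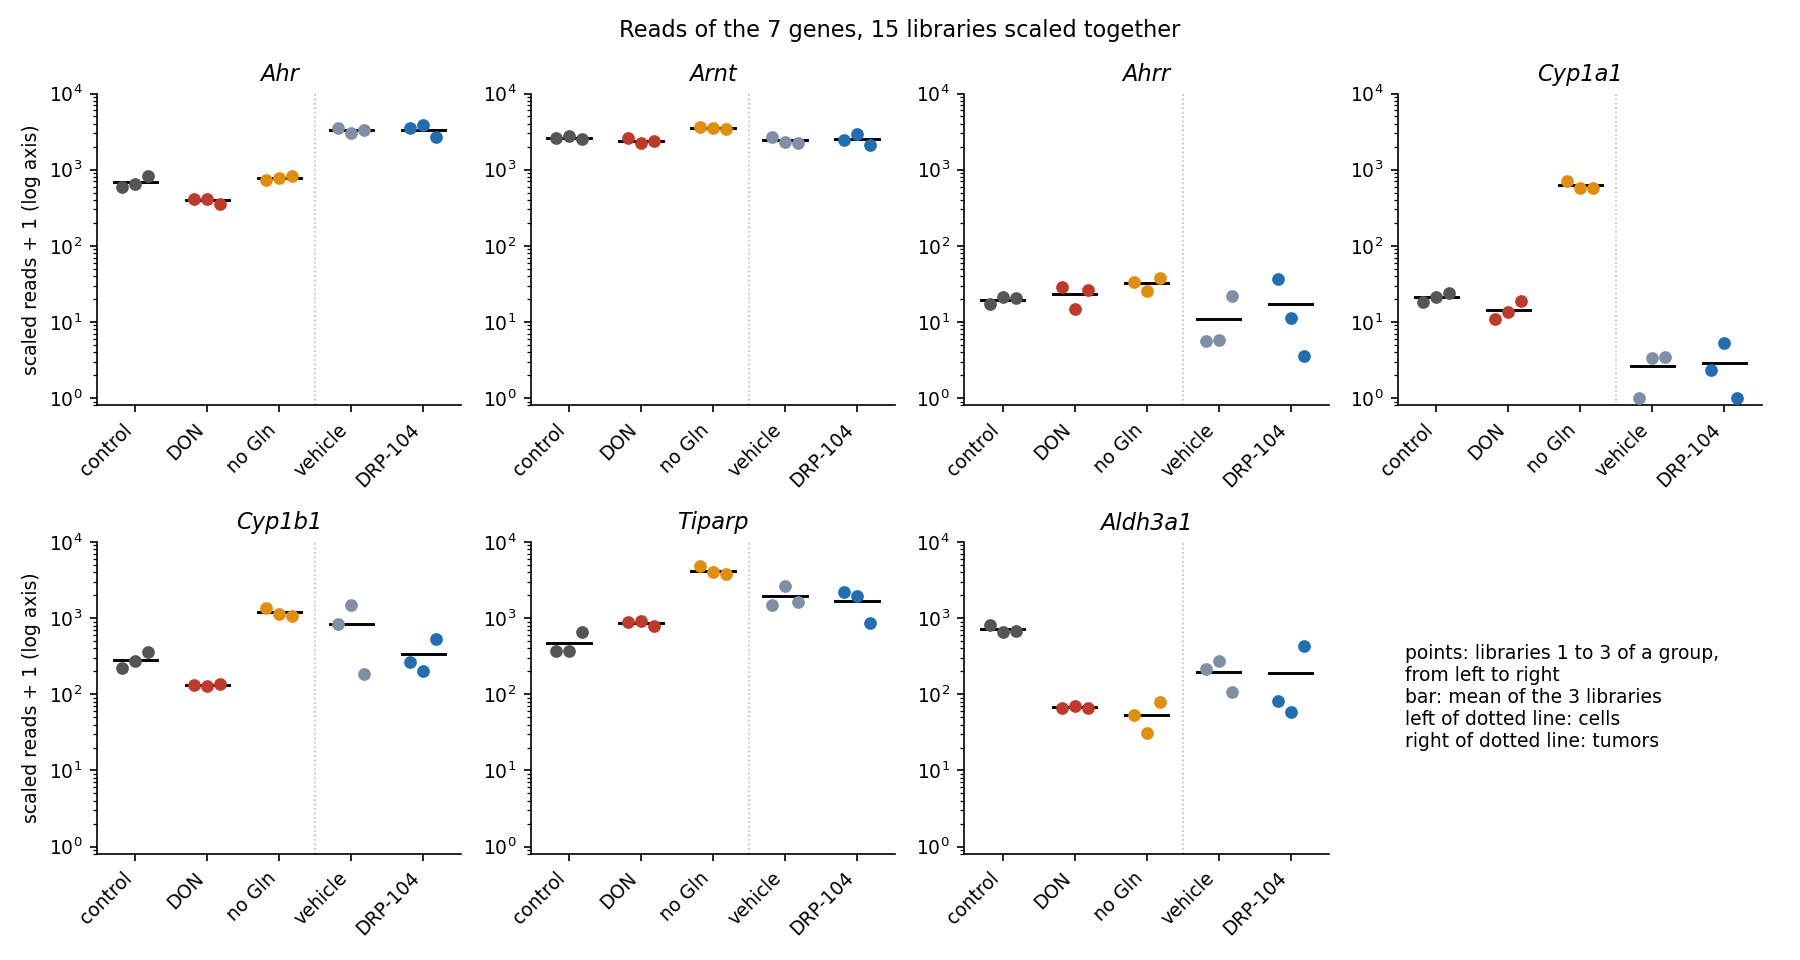
Reads of each gene in each of the 15 libraries, scaled together, on a log axis of scaled reads + 1. Points are libraries, bars are means of 3, cells are left of the dotted line and tumors right of it. Cyp1a1 in Gln-free cells lies between 576 and 709 scaled reads, while every other library has at most 22.7.

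Cyp1b1 (ENSMUSG00000024087, chromosome 17 from 79706953 to 79715041, minus strand) encodes a related monooxygenase that also acts on steroids and retinoids. Without Gln it had 1581, 1313 and 1253 normalized counts against 252, 315 and 419.7 in the controls. The groups did not overlap, and the means of 1383 ± 175 and 329 ± 84.5 give a ratio of 4.20 and a log2 difference of 2.09, rank 357. After DON it moved the other way. It had 158, 154 and 165 normalized counts against 268, 333 and 435 in the controls. All DON cultures were below all controls, with a log2 fold change of -1.09 (SE 0.184, limma adjusted p = 1.23e-04). On the 9 libraries scaled together, Gln-free cells had 8.96 times as many Cyp1b1 reads as DON-treated cells.

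Tiparp (ENSMUSG00000034640, chromosome 3 from 65528410 to 65555145, plus strand) encodes a mono-ADP-ribosyltransferase that is induced by AHR and represses it. It was the only member called higher after DON. Without Gln it had 5562, 4747 and 4426 normalized counts against 425, 427 and 772 in the controls, so that every Gln-free culture exceeded every control. The means were 4912 ± 585 and 542 ± 199.8, a ratio of 9.07 and a log2 difference of 3.23, rank 86. After DON the values were 1059, 1091 and 949 against 451, 452 and 801. Tiparp rose after DON by a log2 fold change of 0.91 (SE 0.184, limma adjusted p = 5.40e-04) and the groups did not overlap, control library 3 being the highest control. Without control library 3 the log2 fold change was 1.19. Gln-free cells had 4.89 times the Tiparp reads of DON-treated cells when scaled together.

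Aldh3a1 (ENSMUSG00000019102, chromosome 11 from 61207537 to 61218421, plus strand) encodes an aldehyde dehydrogenase of the classical AHR gene battery. It was lower in both treatments, unlike Cyp1b1 and Tiparp. It had 78.8, 83.1 and 78.9 normalized counts after DON against 993, 809 and 803 in the controls. The DON cultures lay close together and far below the controls, with a log2 fold change of -3.41 (SE 0.152, limma adjusted p = 2.37e-10), a mean 10.8 times lower. Without Gln the values were 60.6, 35.1 and 90.1 against 936, 764 and 774, a mean 13.3 times lower and a log2 difference of -3.81. Counted from the lowest log2 value, Aldh3a1 ranked 243 of 13556 genes after DON and 155 of 13390 without Gln. DON-treated and Gln-free cultures overlapped when scaled together, at 78.9 ± 2.57 and 62.7 ± 27.8 scaled reads.

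The receptor itself, Ahr (ENSMUSG00000019256, chromosome 12 from 35497974 to 35535038, minus strand), had 497, 494 and 425 normalized counts after DON against 721, 794 and 977 in control cells. It fell after DON by 0.81 on the log2 scale (SE 0.135, limma adjusted p = 1.17e-04), with no overlap. Without Gln it had 862, 904 and 954 normalized counts against 679, 750.2 and 942, which overlap, and a log2 difference of 0.21. Arnt (ENSMUSG00000015522, chromosome 3 from 95434388 to 95497240, plus strand), the partner with which AHR binds DNA, had 3059.5, 2658 and 2899 normalized counts after DON against 3209, 3432 and 3001 in the controls. Its log2 fold change of -0.16 was not called (95% interval -0.36 to 0.04, adjusted p = 0.136, limma), although it was called without control library 3 (-0.21, adjusted p = 0.0283, limma). Without Gln Arnt had 4222, 4095 and 3989 normalized counts against 3025, 3242 and 2895, all above the controls, with a log2 difference of 0.43. Ahrr (ENSMUSG00000021575, chromosome 13 from 74211118 to 74292331, minus strand) encodes the AHR repressor, which competes with AHR for ARNT, and it was scarce. It had 33.4, 16.6 and 30.2 normalized counts after DON against 20.1, 25.0 and 23.4, and the groups overlapped (log2 fold change 0.17, 95% interval -0.68 to 1.01, adjusted p = 0.72, limma). Leaving out DON library 1 turned its sign, to -0.02. Without Gln the values were 37.6, 28.9 and 42.0 against 19.0, 23.6 and 22.6, which do not overlap, with a log2 difference of 0.70.

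Counted together after DON, 1 of the 7 members, Tiparp, was called higher, and 3, Cyp1b1, Ahr and Aldh3a1, were called lower (background 33.3% and 34.7% of all genes). The groups did not overlap for 4 members, where they did not overlap for 71.9% of all genes tested, so these counts are near or below the background of this comparison. Without Gln the groups did not overlap for 6 members, 5 of them higher, beside 73.6% of all genes, and nothing is read from that count because the comparison selected the group. In the 4 called members the exact two-sided permutation test gave p = 0.1, the smallest possible.

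**Figure D2:**
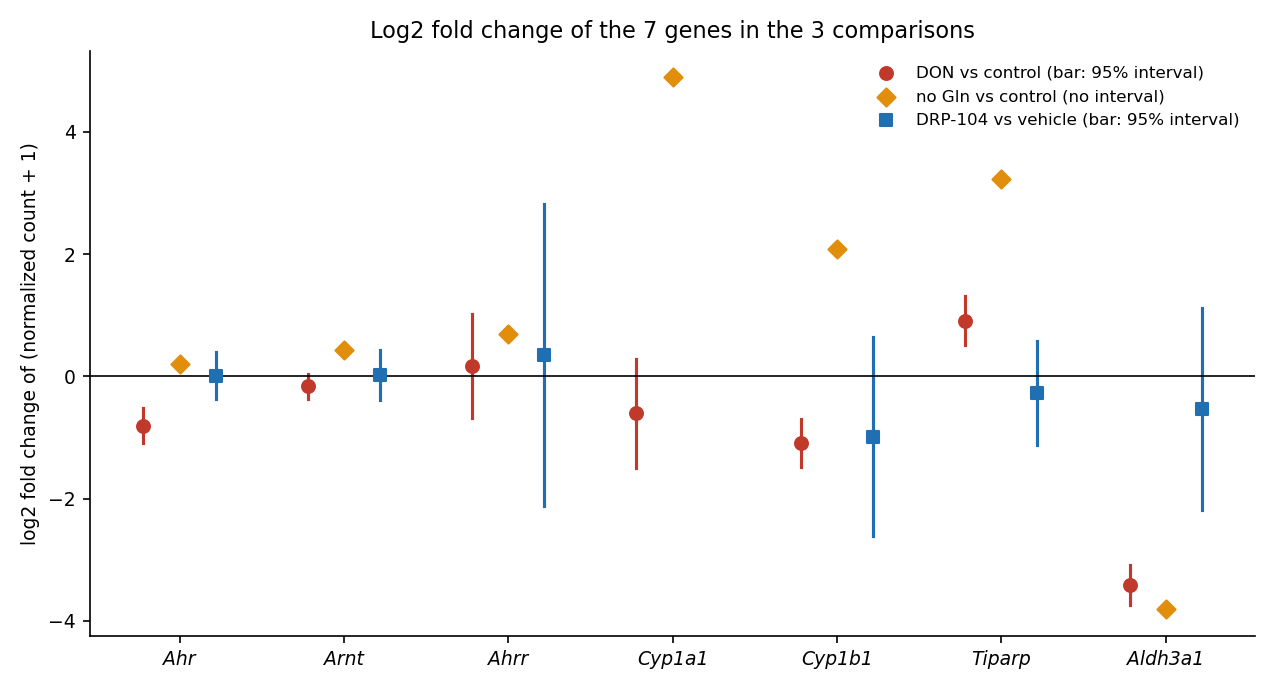
Log2 fold change of normalized count + 1 for each gene after DON, without Gln and after DRP-104, each against its own controls. Bars are 95% intervals from limma, drawn for DON and DRP-104 only. Cyp1a1 without Gln stands at 4.89 and has no DRP-104 point because too few reads were found in tumors.

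In tumors none of the 6 members that could be tested was called (0 of 15454 genes, 0%). Cyp1a1 had 1.07, 3.46 and 0 normalized counts in DRP-104 tumors and 0, 1.86 and 1.93 in vehicle tumors, that is 0 to 3 reads per library, too few for a test. Cyp1b1 had 209, 160.3 and 411 normalized counts after DRP-104 and 649, 1153 and 143 in vehicle tumors. These overlap widely, and the log2 fold change was -0.99 (SE 0.707, 95% interval -2.61 to 0.64, limma adjusted p = 0.92). It ran from -0.35 without vehicle tumor 2 to -1.85 without vehicle tumor 3 and was -1.31 by edgeR and by DESeq2. In the FPKM table, whose tumors were not matched to those of the counts, it was -0.35. Cyp1b1 was not called in any of these fits. Aldh3a1 had 63.1, 46.1 and 334 normalized counts after DRP-104 against 166, 215 and 83.7. DRP-104 tumor 3 was the highest of all and the other 2 the lowest, so the groups overlapped (log2 fold change -0.53, 95% interval -2.19 to 1.12, adjusted p = 0.938, limma).

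Ahr was similar in level across the 6 tumors, with 2728, 3059 and 2087 normalized counts after DRP-104 and 2728, 2389 and 2602 in vehicle tumors (log2 fold change 0.01, 95% interval -0.38 to 0.40, adjusted p = 0.996, limma). Arnt had a log2 fold change of 0.02 (95% interval -0.38 to 0.42, adjusted p = 0.991, limma) and Tiparp of -0.27 (95% interval -1.13 to 0.59, adjusted p = 0.939, limma). Tiparp had 1725, 1557 and 664 normalized counts after DRP-104 and 1173, 2059 and 1299 in vehicle tumors, and without DRP-104 tumor 3, the lowest, its sign turned, to 0.16. Ahrr ranged from 1.96 to 27.8 normalized counts over the tumors, and its log2 fold change of 0.35 had a 95% interval from -2.12 to 2.82 (adjusted p = 0.98, limma). It rested on 2 to 26 reads per library and did not pass the filter without DRP-104 tumor 1 or without vehicle tumor 3. The groups did not overlap for 0 members, beside 10.6% of all genes tested. In this fit the intervals of Ahr and Arnt stayed within 0.42 in either direction, whereas those of Cyp1b1, Aldh3a1 and Ahrr were wider. Alternatives reached further. Ahr had 0.17 (SE 0.148) without DRP-104 tumor 3 and -0.25 (SE 0.193) in the FPKM table, whose tumors were not matched to those of the counts. Larger changes are therefore not excluded.

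Tumor 3 of the DRP-104 group stood apart in its T cell markers. The summed scaled reads of 8 T cell genes (Cd3e, Cd3g, Cd3d, Cd8a, Cd4, Trac, Lck and Cd2) were 1747 there, 59.4 to 102 in the other 2 DRP-104 tumors and 73.2 to 128 in vehicle tumors. Cultured cells, in which Cd3e, Cd3g, Cd3d, Cd4 and Cd2 were at 0, had sums of 72.3 to 94.4 in controls, 46.0 to 53.0 after DON and 96.8 to 142.9 without Gln. Sums of that size therefore do not measure T cells. The 6 fibroblast markers summed to 15599 to 26741 in DRP-104 tumors and 32399 to 61644 in vehicle tumors, without overlap. These are sums of RNA in 3 tumors a group. By protein staining of podoplanin, aSMA and PDGFR, the paper reports no significant change of fibroblasts after DRP-104. It also reports no increase of CD3 or CD8 staining. Cyp1b1 was highest in vehicle tumor 2, which also had the most fibroblast reads, and lowest in vehicle tumor 3, which had the fewest among vehicle tumors and the most acinar reads (3211, against 198 and 269 in the other vehicle tumors). The DRP-104 tumors did not follow that order, since tumor 3 had the fewest fibroblast reads of all 6 tumors (15599) and the most Cyp1b1 of its group (534 scaled reads), and vehicle tumor 3 had more fibroblast reads than every DRP-104 tumor (32399) and less Cyp1b1 (182 scaled reads). In bulk tissue fewer cells of a type and less RNA per cell cannot be told apart. The part of these cell types in the values of the members was not tested.

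Scaled over all 15 libraries, the levels of the members followed different orders. Cyp1a1 was highest without Gln (621 ± 75.9 scaled reads), then in controls (20.1 ± 2.62) and after DON (13.5 ± 4.18), which overlap, and lowest in DRP-104 and vehicle tumors (1.90 ± 2.22 and 1.60 ± 1.39), which overlap. Ahr was highest in tumors, with 3346 ± 576 after DRP-104 and 3281 ± 229 with vehicle, which overlap, followed by Gln-free and control cells (779.7 ± 41.3 and 681 ± 117), which overlap, and DON-treated cells (394 ± 35.8). Tumors with vehicle thus had 4.81 times the Ahr level of control cells, while their Cyp1a1 level rests on 0 to 2 reads per library. Tumors also held more reads of other cell types (the 6 macrophage markers summed to 4398 to 8785 in tumors and 979.9 to 2332 in cells, where Adgre1 and C1qb were at 0, and the 6 fibroblast markers to at least 15599 in tumors and at most 21.5 in cells), and their part in this difference was not tested. Aldh3a1 was highest in control cells (711 ± 85.8), and its 4 other groups, from vehicle tumors (198 ± 84.7) down to Gln-free cells (53.3 ± 23.7), each overlapped the next. Tiparp was highest without Gln (4223 ± 494), then in vehicle and DRP-104 tumors (1924 ± 607 and 1674 ± 713), which overlap each other, while DRP-104 tumors also overlapped DON-treated cells (862 ± 65.9), and control cells were lowest (467 ± 172). Cyp1b1 followed the order no Gln, vehicle, DRP-104, control and DON, with overlap between neighbors except the last 2. For Arnt only Gln-free cells stood apart, at 3527 ± 92.8 scaled reads against group means of 2397 to 2633 elsewhere.

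Per kilobase of gene length, which lets genes be compared, control cells held most Arnt (609 ± 33.7 scaled reads per kilobase) and Aldh3a1 (411 ± 49.6), then Ahr (123 ± 21.0) and Tiparp (122 ± 45.1), which did not differ beyond their spread. Cyp1b1 followed at 55.3 ± 14.1, Cyp1a1 at 7.69 ± 1.00 and Ahrr at 3.67 ± 0.398. Without Gln the order was Tiparp (1106 ± 129), Arnt (815 ± 21.4), Cyp1a1 (237 ± 29.0) and Cyp1b1 (232 ± 28.8), the last 2 level with each other, then Ahr (141 ± 7.45), Aldh3a1 (30.8 ± 13.7) and Ahrr (6.10 ± 1.13). Cyp1a1 thus went from the second lowest of the 7 to the level of Cyp1b1.

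The effect of DRP-104 in tumors was set against that of DON in cells, on the 12 libraries scaled together, by a test of the difference between the 2 effects (32.6% of 15233 genes were called). The difference was 0.79 for Ahr (95% interval 0.33 to 1.26, adjusted p = 0.0125, limma) and 2.85 for Aldh3a1 (95% interval 1.13 to 4.57, adjusted p = 0.0147, limma), where leaving out each library in turn gave 1.96 to 3.41, all called, and the lowest came without DRP-104 tumor 3. The Aldh3a1 call was lost in a fit with the replicate number as a block (adjusted p = 0.0532, limma). The test pooled the spread of cells and tumors. For Aldh3a1 the log2 SD was 0.043 after DON, 0.174 in control cells, 1.52 in DRP-104 tumors and 0.698 in vehicle tumors. Its interval and its call thus rest in part on the narrow spread of the cultures, and a test with separate spreads was not run. Ahr and Aldh3a1 fell in cells after DON and were not called in tumors. For Tiparp the difference was -1.21 (95% interval -2.20 to -0.22) and missed the threshold (adjusted p = 0.0585, limma), but it was called without control library 3 (-1.49, adjusted p = 0.0259, limma), without DRP-104 tumor 1 (-1.46, adjusted p = 0.0260, limma) and without DRP-104 tumor 2 (-1.38, adjusted p = 0.0497, limma). Cyp1b1, Arnt and Ahrr were not called, with differences of 0.07, 0.16 and 0.16 and adjusted p of 0.955, 0.554 and 0.929 (limma). Dose, duration and tissue differ between the 2 treatments, so the difference does not compare the compounds alone.

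The other genes of the pathway were read from lists by role. Among 8 genes of the cytoplasmic AHR complex and alternative ARNT partners, 6 were tested after DON, 1 rose, 2 fell and 3 were not called (background 33.3% higher and 34.7% lower), with a median log2 fold change of -0.11 beside 0.02 over all genes. Epas1, the hypoxia factor HIF-2α that also pairs with ARNT, fell from 311 ± 6.08 to 21.99 ± 10.9 normalized counts (log2 fold change -3.91, adjusted p = 2.04e-07, limma). Without Gln it had 28.7 ± 1.66 against 296 ± 8.57. Sim2, a transcription factor that pairs with ARNT, fell after DON by 0.57 on the log2 scale (adjusted p = 0.00733, limma), a call that was lost with quantile normalization (adjusted p = 0.0569, limma), and Ptges3, the HSP90 co-chaperone p23, rose by 0.40 (adjusted p = 0.00334, limma). The chaperones Hsp90aa1 and Hsp90ab1 and the hypoxia factor Hif1a were not called after DON, with log2 fold changes of -0.24, 0.12 and 0.02. Without Gln Hsp90aa1 had 32633 ± 1177 normalized counts against 21018 ± 4408 and Hsp90ab1 had 64934 ± 2179 against 135529 ± 9157. Hif1a had 6095 ± 314 against 5194 ± 955 there.

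Of 13 other genes known as AHR targets, 9 were tested after DON, of which 1 rose, 6 fell and 2 were not called (background 33.3% higher and 34.7% lower), with a median log2 fold change of -0.72 beside 0.02 over all genes. Cyp2s1, a monooxygenase, fell from 1703 ± 67.4 to 126 ± 8.24 normalized counts (log2 fold change -3.75, adjusted p = 2.12e-11, limma). Nqo1, a quinone reductase, fell from 18.4 ± 8.22 to 1.68 ± 2.91 (log2 fold change -3.32, adjusted p = 0.00358, limma) at a level of few reads. Selenbp1 and Gsta1, a glutathione transferase, fell, with log2 fold changes of -2.53 and -2.44 (limma adjusted p = 1.67e-07 and 1.65e-08). The gene that rose was Htatip2, by 0.78. Without Gln Cyp2s1 had 248 ± 20.9 normalized counts against 1618 ± 48.6, Gsta1 96.5 ± 31.4 against 538 ± 93.3 and Selenbp1 15.1 ± 5.02 against 320.3 ± 59.9. The median log2 difference of the 10 genes of the list that passed the filter there was -0.94, beside 0.01 over all genes. Notum lay above its controls, with a log2 difference of 1.44, while Slc46a3 had -0.01, Nfe2l2 -0.10 and Htatip2 -0.42. Of these 10 genes, 5 were called lower without Gln, 1 was called higher and 4 were not called (background 34.5% higher and 34.9% lower). Nothing is read from that count, because this comparison selected the group. Cyp1a2, which is read in the opposite direction with 13957 bases between the starts of both genes, had no read in any treated culture or any tumor, and 7.55 normalized counts in 1 control culture only. The increase in Cyp1a1 without Gln was thus not accompanied by Cyp1a2 reads.

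**Figure D3:**
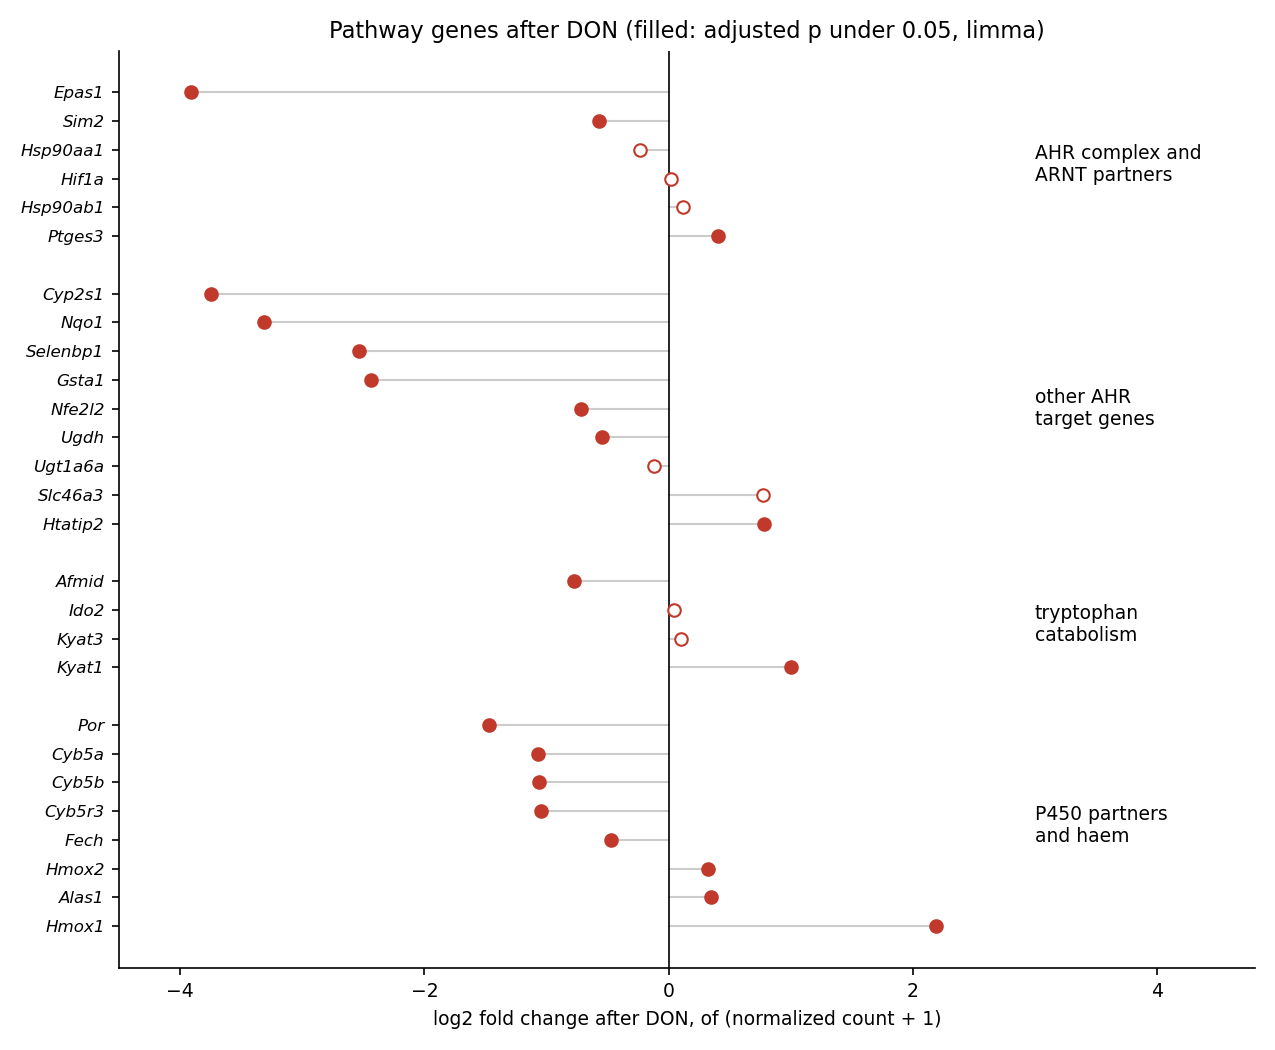
Log2 fold change after DON of the tested genes in 4 pathway lists. Each point is a gene, filled where its adjusted p was under 0.05 and open where it was not. Epas1 at -3.91 and Cyp2s1 at -3.75 lie farthest below 0 and Hmox1 at 2.19 farthest above it.

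Of 10 enzymes of tryptophan breakdown, which make or use kynurenine and related compounds, 4 had enough reads for a test after DON. Kyat1, a kynurenine aminotransferase, rose from 134 ± 34.3 to 264 ± 38.2 normalized counts (log2 fold change 1.00, adjusted p = 8.09e-04, limma), and Afmid, the formamidase that releases kynurenine, fell by 0.77 (adjusted p = 0.0069, limma). Ido2 and Kyat3 were not called. Without Gln the 4 enzymes had log2 differences from -1.47 to -0.41. Ido1 and Tdo2, which also open the kynurenine pathway, and Il4i1, which makes indole ligands, did not pass the filter in cells.

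Cytochrome P450 enzymes need electrons from reductases and a haem group, and all 8 genes of that list were called after DON, 3 higher and 5 lower (68.1% of all genes were called in either direction, 33.3% higher and 34.7% lower), with a median log2 fold change of -0.76 beside 0.02 over all genes. Por, the reductase that feeds the microsomal P450 enzymes, fell from 8896 ± 1195 to 3191 ± 322 normalized counts (log2 fold change -1.47, adjusted p = 4.49e-08, limma). Cyb5a and Cyb5b, the cytochromes b5, fell by 1.07 and 1.06. Hmox1, the haem-degrading oxygenase, rose from 989 ± 116 to 4489.9 ± 261 (log2 fold change 2.19, adjusted p = 4.88e-10, limma). Without Gln Por stayed near its controls in level, at 7748 ± 233 against 8446 ± 1044, while Cyb5a had 1118 ± 52.1 against 2904 ± 219 and Hmox1 2356 ± 238 against 939 ± 99.6. In tumors 0 genes of the 4 lists were called.

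Among all 75 genes of the cytochrome P450 families 1 to 4 in the tables, 13 had enough reads in the DON comparison. Of these 4 rose, 6 fell and 3 were not called, a total near the 68.1% of all genes called. The largest rises were those of Cyp3a13, from 691 ± 29.2 to 1943 ± 47.0 normalized counts (log2 fold change 1.49, adjusted p = 9.23e-09, limma), and of Cyp2t4, from 7.62 ± 1.405 to 23.4 ± 6.80 (log2 fold change 1.47, adjusted p = 0.0154, limma), which was lost when DON library 2 or 3 was left out (adjusted p = 0.0658 and 0.0608, limma). The lowest fitted values were those of Cyp4f14, which had no read in any DON library against 27.0 ± 7.71 normalized counts in controls and was at least 9.12-fold lower against a floor of 3 reads per library, a bound that does not place it below Cyp2s1, and of Cyp2c65, from 673.8 ± 53.8 to 31.2 ± 14.6 (log2 fold change -4.47). Floors cover counting error only. Without Gln the 11 genes of these families other than Cyp1a1 and Cyp1b1 had a median log2 difference of -0.75, the same with Cyp4f14 set at its bound, and a highest one of 0.74 (Cyp2t4), far below the 4.89 of Cyp1a1 and the 2.09 of Cyp1b1.

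**Figure D4:**
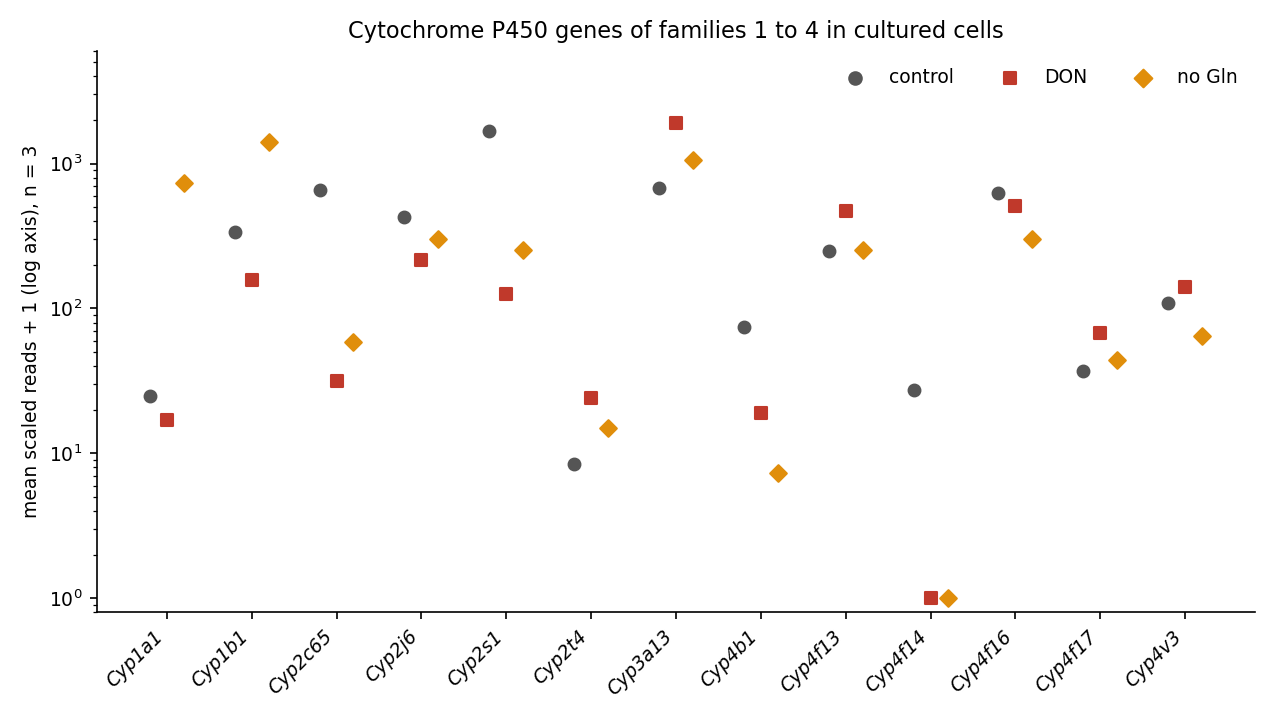
Mean scaled reads + 1 on a log axis of the 13 cytochrome P450 genes with enough reads in cultured cells, in control, DON-treated and Gln-free cells (n = 3 each, 9 libraries scaled together). Cyp1a1 and Cyp1b1 have their highest mean without Gln (731 and 1399 scaled reads), and Cyp2s1 and Cyp2c65 in controls.

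Over the 9 culture libraries, the genes whose pattern was most like that of Cyp1a1 were sought among 8957 genes with a range of at least 1 log2 unit. By Pearson's r of log2(scaled reads + 1) they were Hivep1 (0.995), Areg (0.994), Ets1 (0.994), Enc1 (0.993) and Gadd45g (0.992). The 9 libraries fall into 3 groups, so r describes the shared step between groups and carries no test. Areg, the epidermal growth factor receptor ligand amphiregulin, had 1583 ± 98.2 scaled reads in controls, 1344 ± 146 after DON and 11004 ± 126 without Gln. Gadd45g, a stress-response gene, had 649.7 ± 26.5, 363 ± 20.02 and 8214 ± 1061. Of the members in that set, Cyp1b1 had r = 0.963, Tiparp 0.912, Ahr 0.681, Ahrr 0.673 and Aldh3a1 -0.49.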

How the data were processed

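Bulk RNA-seq of HY19636 cells and tumors was analysed in 5 groups of 3 samples. According to the methods, alignment (HISAT2) and differential testing (DESeq2) were done by Novogene for the authors. The submitters' processing notes also name CASAVA, STAR 2.5 and GRCm39. The counting tool and the use of strand are not given in the sources used here. The deposited signal is a normalized count, each library's gene counts over its own size factor, and every comparison has its own table. The authors' deposited FPKM values cover tumors only, are normalized for length and depth, and are matched to groups but not to single tumors. In DRP-104 tumors Aldh3a1 had FPKM values of 1.84, 2.37 and 0.94, without the high tumor seen in the normalized counts (63.1, 46.1 and 334). In vehicle tumors Cyp1b1 had FPKM values of 5.97, 11.7 and 7.86, against 649, 1153 and 143 normalized counts. Fits on the FPKM table are therefore not a second processing of values known to be the same. Whether both sets of values come from the same tumors was not tested. Columns with the authors' own fold changes and p-values were not used. The control columns of the culture tables are named like vehicle tumors and were mapped to the control group as a whole, from the tables' own comparison. Gene coordinates and lengths come from the FPKM table. Of 31061 genes it shares by name with GENCODE M21 (GRCm38), 21653 have the same start and end.

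Each value divided by the worth of 1 read gave a whole number, within 0.0051, for at least 99.9866% of values above 0 in every library. The recovered reads of the 3 control libraries were the same in both culture tables. Even numbers made up 69.6% to 72.7% of the genes at 1 to 20 reads in cultures and 41.9% to 46.5% in tumors. The cause of this excess in cultures was not tested. Read numbers of cultures and tumors may therefore not be in the same unit. Without molecular identifiers, reads are not independent molecules.

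Because the values are normalized, the test was limma 3.58.1 (R 4.3.3, trend) on log2(value + 1), for genes with a mean of at least 10 over the 6 libraries, treated minus control, with Benjamini-Hochberg adjustment. Fold changes on that scale understate the change of low genes. The DRP-104 effect minus the DON effect was tested as an interaction term, after joint scaling of the 12 libraries (median of ratios). Single values were tested by exact permutation (scipy 1.17.1). On simulated data with 200 changed genes, limma found 99% of 2-fold changes among 13556 genes in the DON comparison. Among 15454 genes in tumors it found 39% of 2-fold and 100% of 4-fold changes. The median residual SD of the tumor fit was 0.315 (log2). In DRP-104 tumors the log2 SD was 0.283 for Ahr, 0.286 for Arnt, 0.756 for Tiparp, 1.52 for Aldh3a1 and 1.64 for Ahrr. For Cyp1b1 it was 0.698 in DRP-104 and 1.55 in vehicle tumors. Whether a 4-fold change would be found at the spread of a single member was not tested.

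The members and lists were chosen with earlier results of these data known, and 1 gene of the lists and 1 allele of the line are not reported here. Named were the members, Cyp1a2, from each list up to 4 genes called after DON with the largest change, the 2 highest and 2 lowest fitted log2 values among P450 genes, the 5 genes most like Cyp1a1, and the neighbors of Cyp1a1 in rank. Hsp90aa1, Hsp90ab1, Hif1a, Htatip2, Notum, Slc46a3, Nfe2l2, Ido1, Ido2, Tdo2, Il4i1 and Kyat3 fall outside that rule and were named after their values were seen. Reads of Ahr and of Tiparp overlap an antisense gene in GENCODE M21 (Gm48236, 0 to 11 reads, and 4931440P22Rik, 25 to 104 reads), and without strand these cannot be told apart. Alternatives were edgeR 4.0.16 and DESeq2 1.42.0 on recovered reads, pseudocounts of 5 and 0.5, no filter, a mean of at least 50, a threshold of 0.01, quantile normalization, the FPKM table, a replicate block and leaving out each library. Tables were handled in Python 3.11.15 with pandas 2.3.3 and numpy 2.4.6, and plots were drawn with matplotlib 3.10.9.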

Additional observations from a re-analysis of the deposited data

Results flagged for a closer look

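For Ahr, the effect of DRP-104 in tumors and that of DON in cells differed by 0.79 on the log2 scale in the test of the difference (adjusted p = 0.0125, limma, range over its alternatives 0.00193 to 0.0431), with 394 ± 35.8 scaled reads after DON against 681 ± 117 in control cells and 3346 ± 576 after DRP-104 against 3281 ± 229 with vehicle. All 3 DON cultures were below all controls, and the tumors overlapped.

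For Aldh3a1 the difference was 2.85 on the log2 scale (adjusted p = 0.0147, limma, range over its alternatives 0.00327 to 0.0532), with 67.0 ± 2.13 scaled reads after DON against 711 ± 85.8 in control cells and 191 ± 211 after DRP-104 against 198 ± 84.7 with vehicle. DRP-104 tumor 3 had 434.6 scaled reads and the other 2 had 80.6 and 57.9. The test pooled the wide spread of these tumors with the narrow spread of the cultures, so its p-values for Aldh3a1 rest in part on the cultures.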

How the results depend on the processing

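The counts of genes called stayed within 1.5 times their value under every alternative run after DON (7706 to 9660 genes, against 9226), without Gln (7916 to 9683, against 9292) and for the difference between tumors and cells (4019 to 5489, against 4971). In tumors the count was 0 under every alternative except DESeq2 on whole reads, which called 56 genes, 27 higher and 29 lower (951 at an unadjusted p under 0.05). Under quantile normalization the median over all genes after DON went from 0.02 to 0.13 (log2) and the split went from 4520 higher and 4706 lower to 5321 and 4183, and no member changed its direction or call under it. Same-numbered libraries did not deviate together (correlations of -0.36 to 0.04), so the numbers name samples only, and the replicate block called 9216 genes after DON, 9056 without Gln, 0 in tumors and 4064 for the difference, where Aldh3a1 then missed the threshold (2.85, adjusted p = 0.0532, limma). Members whose sign turned were all uncalled. With the FPKM table, whose tumors were not matched to those of the counts, Ahr had -0.25 and Arnt -0.24. Where the sign turned or the value moved most, leaving out 1 library gave, in tumors, -1.85 to -0.35 for Cyp1b1, -0.11 to 0.17 for Ahr, -0.13 to 0.16 for Arnt, -0.52 to 0.16 for Tiparp and -1.40 to 0.013 for Aldh3a1, after DON -0.017 to 0.47 for Ahrr, and for the difference between tumors and cells, -0.79 to 0.71 for Cyp1b1 and -0.69 to 0.99 for Ahrr. For Ahrr in tumors, leaving out 1 library gave 0.022 to 1.17 where the gene still passed the filter. The cause of these changes was not tested. Of 837 values of named genes under alternatives, 802 kept their direction and their side of the threshold or moved by less than the spread. In tumors the 3 samples a group and their spread limit the tests, and Cyp1a1 rests on 0 to 3 reads there.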
